A study of Rattus norvegicus with 27 samples.

Results

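The genes of the transforming growth factor beta (TGF-beta) and bone morphogenetic protein (BMP) pathway were followed through 3 culture stages of primary rat Schwann cells. Members were chosen by gene name alone: the TGF-beta, BMP, growth differentiation factor (Gdf) and activin subunit genes, the Tgfbr, Bmpr and Acvr receptors, the SMADs, the antagonists Nog, Grem1, Fst and Chrd, and Ltbp1 to Ltbp4. This gave 54 of the 17315 genes in the cell mRNA table, and 33 of them passed the filter on low counts, as did 10372 genes in all. Schwann cells are the glia that ensheath and myelinate axons of peripheral nerves. The cells were bought as primary cultures and used at passages 3 to 5. Undifferentiated cells were kept without dbcAMP, the dibutyryl form of cyclic AMP that can enter cells, and their medium is not otherwise given. Differentiated cells were starved overnight and then kept for 72 h with 1 mM dbcAMP in DMEM holding 1% exosome-depleted serum. Dedifferentiated cells had the same treatment and then 72 h without dbcAMP in complete medium with 10% serum, forskolin and 10 ng/mL neuregulin. Withdrawal here means that of dbcAMP alone, in a medium that held forskolin. Stage and medium changed together and cannot be told apart. Each stage had 3 libraries, which the labels call biological replicates. No in vivo nerve or axon was part of these cultures.

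TGF-beta and BMP ligands are secreted dimers that bring together type I and type II serine/threonine kinase receptors. The activated type I receptor phosphorylates receptor-regulated SMADs, of which Smad2 and Smad3 serve the TGF-beta and activin branch and Smad1, Smad5 and Smad9 the BMP branch. These join Smad4 and enter the nucleus, while Smad6 and Smad7 inhibit the cascade. TGF-beta is secreted in a latent complex that latent TGF-beta binding proteins tether to the matrix. In the peripheral nerve, TGF-beta is known as a signal of Schwann cell development, of death of developing Schwann cells and of the response to nerve injury.

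The libraries held 10058735 to 16212278 estimated counts and detected 35 to 42 of the 54 members each. Levels are given as CPM, a gene's count over the total of its library, per 1000000 counts, for which 3 counts corresponded to 0.185 to 0.298 CPM. They are not scaled by transcript length, so levels are compared between stages and not between genes. Schwann cell markers summed to 8242 to 9425 CPM in undifferentiated, 8445 to 11080 in differentiated and 18540 to 21430 in dedifferentiated cells, with 7 of 8 detected and Fabp7 at 0. Markers of fibroblasts, which also express many of these genes, were detected for 7 of 8 and summed to 24400 to 29130, 12020 to 15680 and 16040 to 19580 CPM in the same order. Nearly all of that was Col1a1 and Col1a2, collagens that Schwann cells in culture also make. Lum was at 0, and Dcn and Pdgfra reached at most 0.884 CPM in any library. The other fibroblast markers were detected, Col3a1 at 39.5 to 225.5 CPM, Fbln1 at 0.339 to 5.12 and Thy1 at 0.370 to 1.92. Pericyte markers (5 of 6 detected, Rgs5 at 0) summed to 58.3 to 69.8, 34.3 to 76.8 and 36.2 to 83.0 CPM. Endothelial markers (Cdh5 at 0) summed to 1.21 to 3.08, 6.78 to 9.11 and 11.9 to 22.5 CPM, with 3, 4 and 4 of 5 detected, and macrophage markers (Aif1 and Adgre1 at 0) to 0.322 to 1.64, 3.64 to 5.09 and 1.88 to 3.39 CPM, with 2, 3 and 3 of 5 detected. Perineurial markers summed to 230 to 273 CPM, then 414 to 440.1 and 433 to 552, with Cldn1 at most 0.226 CPM. Their part in the results was not tested. In these bulk libraries, fewer cells of a type and less RNA per cell cannot be told apart.

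Because the differentiated stage was made with a cyclic AMP analogue, the promoters were searched for the core of the cyclic AMP response element, TGACG, on both strands. RefSeq promoter windows on assembly GRCr8, from 250 bases before to 50 after the start, were found for 44 members. Only 1 window per gene was used, so other starts of a gene were not searched. The core was present in 13 of the 44 windows (29.5%) and in 22.0% of all 27457 windows. The full element TGACGTCA, which contains the core, was in 1 member window (2.3%) and in 1.9% of all windows. Shown here are the 250 bases before the start, 5′ to 3′ on the gene's strand, of the 5 members that held the core there and whose transcript changed by over 1 on the log2 scale between undifferentiated and differentiated cells. Capitals mark the core, which appears as CGTCA where it lies on the opposite strand, and the full element in Ltbp1.
Ltbp1: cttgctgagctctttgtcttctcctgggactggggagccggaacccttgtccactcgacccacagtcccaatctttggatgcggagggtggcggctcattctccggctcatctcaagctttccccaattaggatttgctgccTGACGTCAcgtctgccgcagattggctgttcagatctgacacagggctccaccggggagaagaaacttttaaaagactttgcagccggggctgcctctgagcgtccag
Tgfb1: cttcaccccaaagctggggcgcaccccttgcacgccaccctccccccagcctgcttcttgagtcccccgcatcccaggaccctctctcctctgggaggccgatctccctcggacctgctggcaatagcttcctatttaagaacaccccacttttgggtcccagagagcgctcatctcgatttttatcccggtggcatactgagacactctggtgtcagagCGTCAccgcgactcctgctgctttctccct
Gdf11: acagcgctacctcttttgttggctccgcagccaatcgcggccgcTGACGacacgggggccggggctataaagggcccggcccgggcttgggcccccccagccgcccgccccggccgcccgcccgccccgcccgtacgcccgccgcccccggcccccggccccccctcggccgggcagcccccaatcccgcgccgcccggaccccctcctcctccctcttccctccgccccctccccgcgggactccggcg
Smad1: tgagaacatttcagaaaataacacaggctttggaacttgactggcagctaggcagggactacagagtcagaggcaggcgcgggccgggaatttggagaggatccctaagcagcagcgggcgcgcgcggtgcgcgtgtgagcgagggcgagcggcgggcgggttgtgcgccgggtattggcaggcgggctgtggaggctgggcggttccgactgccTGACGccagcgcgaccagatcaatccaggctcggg
Bmp6: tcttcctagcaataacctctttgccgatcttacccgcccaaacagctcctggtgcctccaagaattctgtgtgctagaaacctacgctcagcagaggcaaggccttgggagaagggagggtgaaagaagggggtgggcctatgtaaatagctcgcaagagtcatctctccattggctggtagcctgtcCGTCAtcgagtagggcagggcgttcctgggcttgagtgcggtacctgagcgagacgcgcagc
The windows lie at chr6:26177302-26177551 (minus strand) for Ltbp1, chr1:90324062-90324311 (plus) for Tgfb1, chr7:1905223-1905472 (minus) for Gdf11, chr19:45417292-45417541 (plus) for Smad1 and chr17:26675262-26675511 (minus) for Bmp6. Counted back from the start, the full element of Ltbp1 begins at -108. The core begins at -30 in Tgfb1, -206 in Gdf11, -35 in Smad1 and -62 in Bmp6. The transcripts of Ltbp1, Tgfb1, Gdf11 and Smad1 were lower in differentiated than in undifferentiated cells, and that of Bmp6 was higher. The core was also in the windows of the tested members Acvr2a, Smad3 and Gdf1. A match to these letters is a description of the sequence and not a binding site. The SMAD binding element CAGAC was in 16 of 44 member and 13720 of 27457 windows. The GC-rich SMAD site GGCGCC was in 31.8% of member and 11.8% of all windows, and the member windows had a median GC content of 64.2% against 52.3% over all windows.

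The first comparison asked how the pathway differed between differentiated and undifferentiated cells. Under dbcAMP, Tgfb1, Tgfb2, Ltbp1, Ltbp2, Bmp3, Gdf11, Smad1, Smad4 and Smad5 all fell by more than 1 on the log2 scale, as did Inhba. Bmp6, Bmp7, Gdf15 and Tgfbr3 rose. In all, 21 of the 33 tested members changed, 4 higher and 17 lower, by edgeR's quasi-likelihood test at an adjusted p under 0.05. Over all tested genes 59.6% changed, 31.7% higher and 27.9% lower. The members' share, 63.6%, was near that background, and their split between directions was not. Their median log2 change was −0.41, against 0.05 over all genes. Of the 28 tested members with a mean of at least 10 counts in every stage, 1 rose and 15 fell. This cut left out Bmp6, Bmp7 and Gdf15, which rose, and Bmp3 and Inhba, which fell. It thus removed most of the members that rose. Bmp7 and Gdf15 passed the filter on low counts only through the differentiated libraries, and Inhba only through the undifferentiated. For these genes the filter itself favoured a call of higher in that stage. The share over all genes was not computed with this cut, here or in the next comparisons. No library of either stage crossed into the other's range for 24 of the 33 members, and for 66.3% of all genes.

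After dbcAMP was withdrawn, the second comparison, 14 members differed between dedifferentiated and differentiated cells (42.4%), 10 higher and 4 lower. Over all genes 46.4% differed, 23.2% higher and 23.2% lower. The members' median log2 change was 0.21 and that of all genes −0.01. Of the 28 members with at least 10 counts on average in every stage, 9 rose and 2 fell. The members left out included Bmp7 and Gdf15, which fell, and Bmp3, which rose. The stages did not overlap for 18 members, and for 58.5% of all genes. Tgfb1, Ltbp1, Bmp3, Gdf11, Bmpr2 and 5 SMAD genes rose, and Bmp7, Gdf15, Acvr1 and Bmp1 fell. Without differentiated replicate 3, dedifferentiated replicate 1 or dedifferentiated replicate 2, 2 members were lower in place of 4.

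The third comparison set dedifferentiated against undifferentiated cells. There 12 members differed (36.4%), 2 higher and 10 lower, against 29.4% of all genes, 16.1% higher and 13.3% lower. The medians were −0.18 for members and 0.02 for all genes. Of the 28 members counted above, 2 rose and 8 fell. The stages did not overlap for 16 members, and for 43.9% of all genes. The genes lower after withdrawal than before treatment were Tgfb1, Tgfb2, Inhba, Bmp1, Bmp3, Gdf11, Smad4, Smad5, Ltbp1 and Ltbp2. Tgfbr2 and Tgfbr3 were higher. The number higher was 1 without dedifferentiated replicate 3 and 4 without all 3 libraries numbered 1. The 3 comparisons share libraries, so their values are given side by side.

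**Figure D1:**
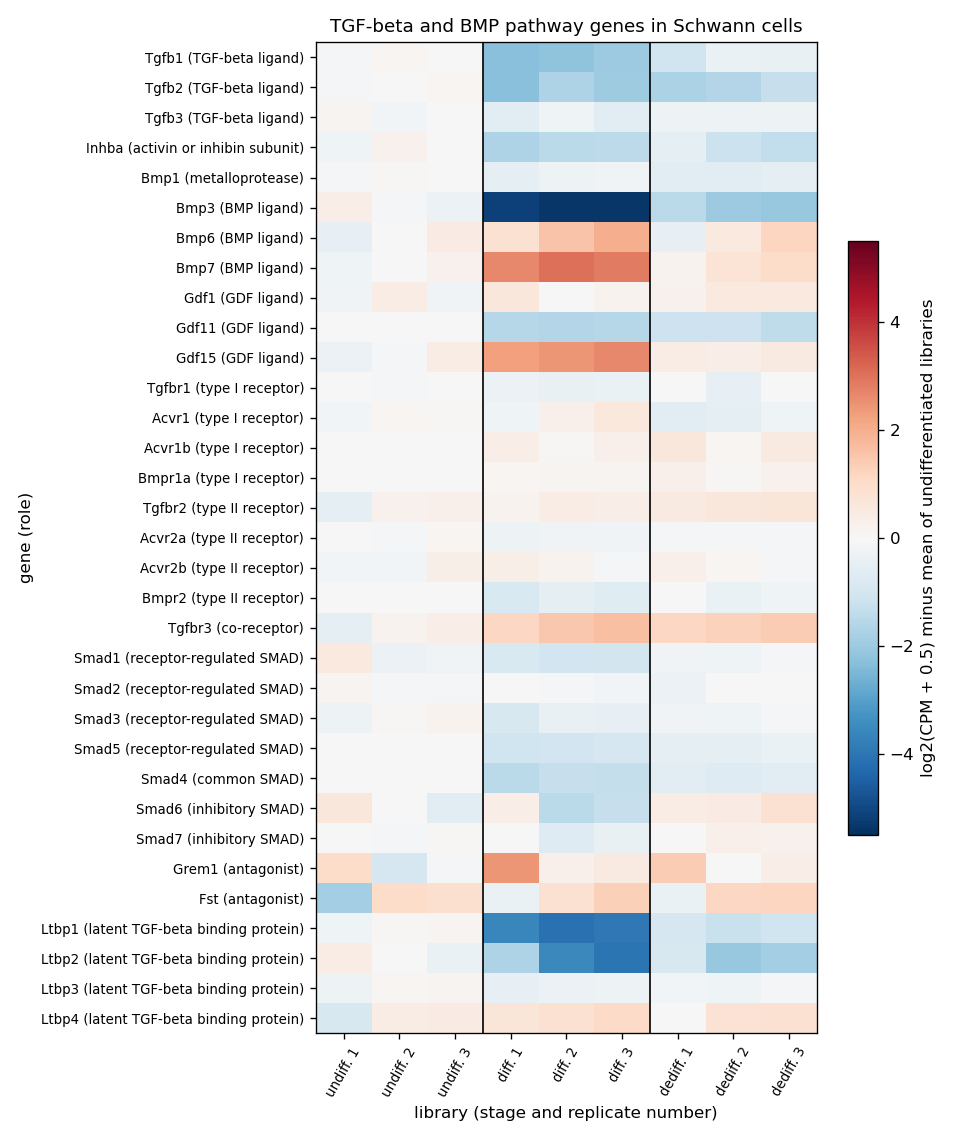
Heat map of the 33 tested members in the 9 libraries, each column a library and each row a gene with its role. Colour is log2(CPM + 0.5) minus the mean of the gene's undifferentiated libraries, limited to ±5.5; blue rows such as Ltbp1 and Bmp3 are lowest in the differentiated columns, and Bmp7 and Gdf15 are red there.

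Tgfb1, the most studied TGF-beta ligand, had 131, 149.7 and 139.6 CPM in the 3 undifferentiated libraries, 28.2, 30.1 and 34.4 in the differentiated and 65.0, 109 and 105 in the dedifferentiated. Every differentiated library lay below every library of the other stages, and the dedifferentiated libraries lay between the others without overlap. Tgfb1 was 4.72-fold lower in differentiated than undifferentiated cells (log2 change −2.24, SE 0.172, edgeR adjusted p = 1.33e-06). It was 3.03-fold higher after withdrawal than under dbcAMP (1.60, SE 0.170, edgeR adjusted p = 3.33e-05), and 1.56-fold below the undifferentiated level (−0.64, SE 0.163, edgeR adjusted p = 0.0138). Tgfb2, a second ligand of the same receptors, had 13.0, 13.7 and 14.8 CPM in undifferentiated cells, 2.43, 3.94 and 3.21 in differentiated and 3.73, 4.18 and 5.42 in dedifferentiated cells. The undifferentiated libraries stood above all others, and the other stages overlapped. Tgfb2 fell 4.51-fold under dbcAMP (log2 change −2.17, SE 0.211, edgeR adjusted p = 8e-06) and remained 3.20-fold lower after withdrawal (−1.68, SE 0.208, edgeR adjusted p = 0.000178). Its change on withdrawal, 0.50 with SE 0.221, did not pass the test (edgeR adjusted p = 0.0891). Tgfb3 was 14.4, 11.6 and 12.8 CPM before treatment and 8.25, 10.8 and 8.57 under dbcAMP, a smaller decrease (log2 change −0.56, SE 0.155, edgeR adjusted p = 0.00943).

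The latent binding proteins hold TGF-beta in the matrix. Ltbp1 had 86.5, 109 and 114 CPM in undifferentiated cells, 8.10, 5.40 and 6.23 in differentiated and 53.8, 43.9 and 48.2 in dedifferentiated cells. No stages overlapped. Ltbp1 was 16.3-fold lower under dbcAMP (log2 change −4.03, SE 0.163, edgeR adjusted p = 1.58e-08) and 7.45-fold higher after withdrawal (2.90, SE 0.161, edgeR adjusted p = 3.97e-07). It stayed 2.19-fold below its first level (−1.13, SE 0.138, edgeR adjusted p = 0.000168). Ltbp2, whose protein binds matrix fibrils and not latent TGF-beta, had 23.5, 17.4 and 13.8 CPM in undifferentiated cells, 5.23, 1.08 and 0.617 in differentiated and 9.49, 3.78 and 4.59 in dedifferentiated cells. In each stage the library numbered 1 was the highest. Ltbp2 fell 8.33-fold under dbcAMP (log2 change −3.06, SE 0.621, edgeR adjusted p = 0.00155), and by −4.52 (edgeR adjusted p = 5.28e-05) without differentiated replicate 1. Its lower level after withdrawal than before treatment (−1.66, SE 0.570) had an edgeR adjusted p of 0.0497. That call was lost in 5 of the 6 fits that left out a library of those stages, with adjusted p up to 0.153. Without differentiated replicate 1, its rise on withdrawal (1.40 with all libraries, edgeR adjusted p = 0.0975) became 2.86 (edgeR adjusted p = 0.0021). Ltbp3, which binds latent TGF-beta, had 243, 316 and 324 CPM before and 214, 236 and 241 under dbcAMP, a decrease of 1.33-fold (log2 change −0.41, edgeR adjusted p = 0.00439).

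Ltbp4 had 57.7, 143 and 145 CPM in undifferentiated and 167, 192 and 220.1 in differentiated cells, without overlap. The log2 change of 0.69 (SE 0.303) did not pass the test (edgeR adjusted p = 0.0709). With the replicate number as a block it was 0.79 (edgeR adjusted p = 0.00309). None of the 6 fits without 1 library called it (edgeR adjusted p = 0.0585 to 0.173). Bmp1, a metalloprotease that cleaves procollagens and Ltbp1 and is no BMP ligand, had 428, 458 and 445 CPM in undifferentiated, 309.8, 367 and 383 in differentiated and 289.6, 295 and 307 in dedifferentiated cells. It fell 1.31-fold under dbcAMP (log2 change −0.39, edgeR adjusted p = 0.00216) and was 1.54-fold lower after withdrawal than before treatment (−0.63, edgeR adjusted p = 0.000305). The further decrease on withdrawal (−0.24, edgeR adjusted p = 0.0398) held in 1 of the 6 fits that left out a library, with adjusted p up to 0.147.

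**Figure D2:**
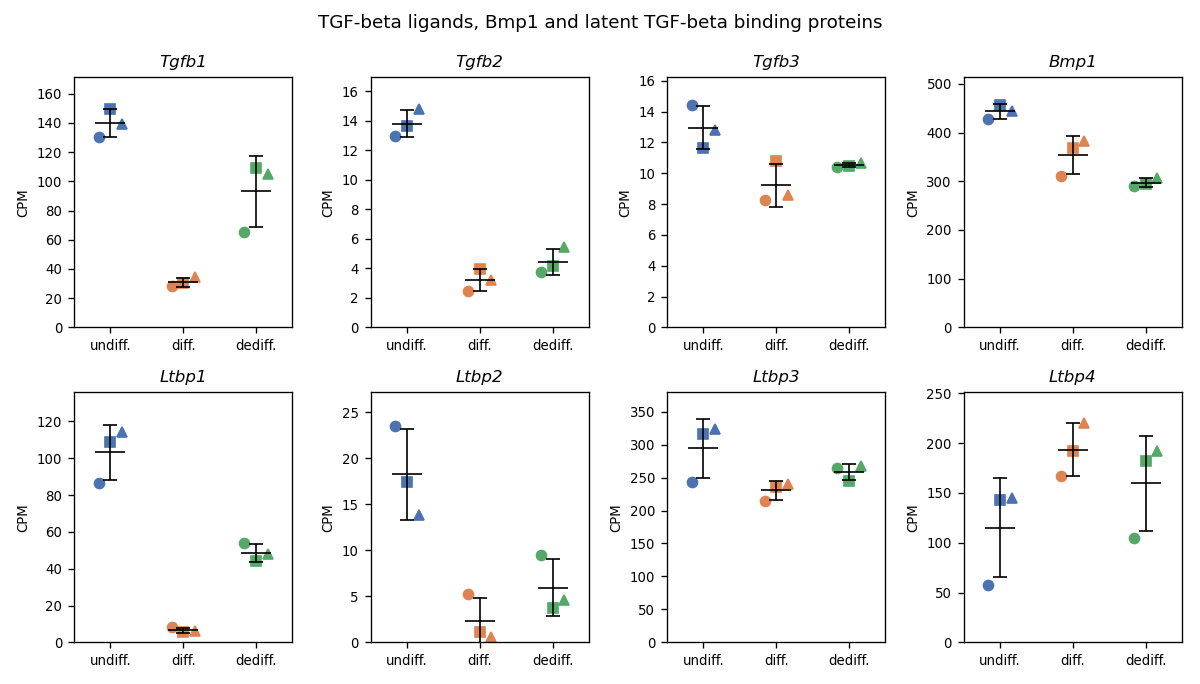
CPM of the 3 TGF-beta ligands, Bmp1 and the 4 latent TGF-beta binding proteins in each library, by stage. Circle, square and triangle are replicates 1, 2 and 3, and dash and bars are the mean ± SD (n = 3), cut at 0; Tgfb1 and Ltbp1 were lowest in differentiated cells and intermediate in dedifferentiated cells, while Tgfb2 stayed low.

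Among the BMP and GDF ligands, levels moved in opposite directions. Bmp3, an atypical member that antagonises other BMPs, had 25.7, 18.9 and 15.7 CPM in undifferentiated cells, 0.0737, 0 and 0 in differentiated and 6.78, 4.57 and 4.21 in dedifferentiated cells. These were 756 counts in the 3 undifferentiated libraries, 1 count in the differentiated and 182 in the dedifferentiated. The ratio of undifferentiated to differentiated counts per total was 848, with a 95% counting interval of 152 to 33550. The ratio of dedifferentiated to differentiated was 221, with an interval of 39.2 to 8789. Both intervals cover counting error only. Bmp3 changed in all 3 comparisons (edgeR adjusted p = 1.76e-07, 6.65e-06 and 0.000357 in the order above). It was 4.01-fold lower after withdrawal than before treatment (log2 change −2.01, SE 0.276). Gdf11, a ligand close to myostatin that acts through activin receptors, had 297, 304 and 309 CPM, then 103, 98.2 and 103, then 136, 136 and 116. No stages overlapped. It fell 3.12-fold under dbcAMP (log2 change −1.64, SE 0.0832, edgeR adjusted p = 6.76e-08) and rose 1.29-fold on withdrawal (0.36, SE 0.0821, edgeR adjusted p = 0.00442). It was still 2.43-fold below the undifferentiated level (−1.28, SE 0.0824, edgeR adjusted p = 2.69e-06).

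Bmp7, a ligand of the BMP branch, had 0, 0.0961 and 0.196 CPM in undifferentiated cells, 3.24, 4.32 and 3.76 in differentiated and 0.170, 0.497 and 0.677 in dedifferentiated cells. Every differentiated library lay above all others. Bmp7 rose under dbcAMP (log2 change 5.00, SE 0.606, edgeR adjusted p = 4.16e-05) and fell on withdrawal (−3.02, SE 0.487, edgeR adjusted p = 0.000572). Gdf15, a stress-responsive cytokine that signals through a receptor outside this family, had 0, 0.0961 and 0.327 CPM, then 2.50, 2.86 and 3.39, then 0.339, 0.298 and 0.376. It too was highest in every differentiated library, rising by 4.10 in log2 (SE 0.572, edgeR adjusted p = 0.000117) and then changing by −3.05 (SE 0.511, edgeR adjusted p = 0.000723). The gene model of Gdf15 overlaps Lrrc25, so its values are uncertain. Bmp6 had 0, 0.192 and 0.458 CPM, then 0.737, 1.54 and 2.28, then 0, 0.497 and 1.05. The differentiated libraries lay above the undifferentiated and overlapped the dedifferentiated. Its rise under dbcAMP (log2 change 2.62, SE 0.932, edgeR adjusted p = 0.0313) was lost when undifferentiated replicate 1 or 2 or differentiated replicate 2 or 3 was left out, with adjusted p of 0.0593 to 0.110. Undifferentiated replicate 3 held most of the undifferentiated counts of these genes. Without it the log2 changes under dbcAMP were 3.89 for Bmp6, 6.06 for Bmp7 and 5.69 for Gdf15. These 3 genes had at most 7 counts in any undifferentiated library. Bmp7 and Gdf15 passed the filter on low counts only through their differentiated libraries, so their calls are not independent of that filter.

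Inhba encodes the subunit of activin A. It had 1.05, 1.63 and 1.37 CPM in undifferentiated cells, 0.0737, 0.154 and 0.185 in differentiated and 0.763, 0.298 and 0.226 in dedifferentiated cells. These were 13, 17 and 21 counts, then 1, 2 and 3, then 9, 3 and 3. Differentiated libraries were below all others in CPM. Differentiated replicate 3 and dedifferentiated replicates 2 and 3 each held 3 counts, so they differ only through library totals. Inhba passed the filter on low counts only through its undifferentiated libraries. It fell under dbcAMP (log2 change −3.24, SE 0.592, edgeR adjusted p = 0.000773). The lower level after withdrawal than before treatment (−1.68, SE 0.514, edgeR adjusted p = 0.032) was lost in 4 of 6 fits without 1 library, with adjusted p up to 0.126, and was −2.41 (edgeR adjusted p = 0.011) without dedifferentiated replicate 1. Gdf1, which had 18.7 to 33.8 CPM, passed no test. Its gene model overlaps Cers1 and Upf1, and its counts were fractional in the deposited table, so its level is uncertain.

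**Figure D3:**
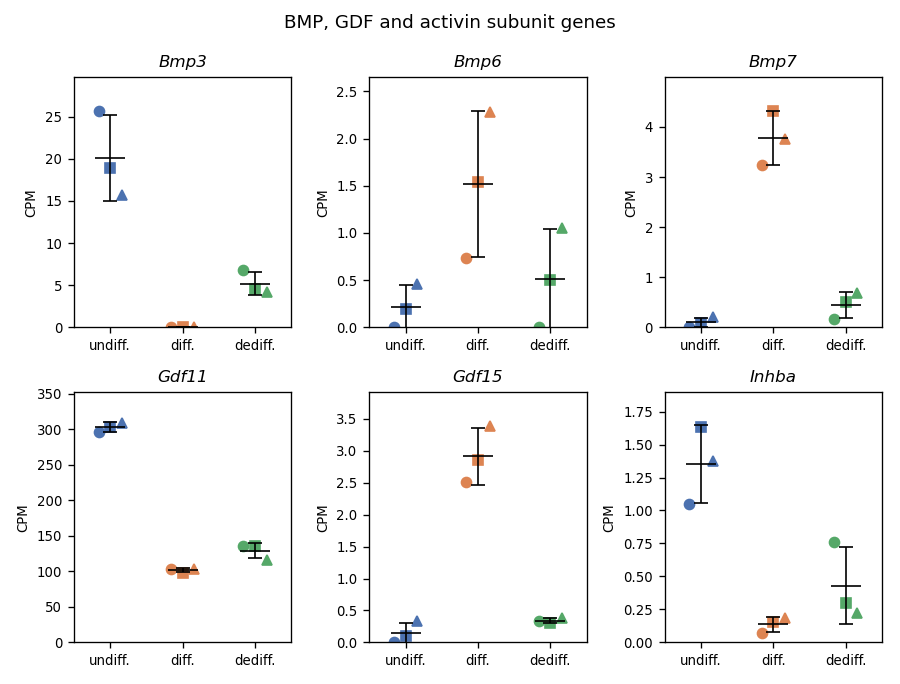
CPM of 5 BMP and GDF ligand genes and Inhba in each library, by stage. Circle, square and triangle are replicates 1, 2 and 3, and dash and bars are the mean ± SD (n = 3), cut at 0; Bmp3, Gdf11 and Inhba were lowest and Bmp6, Bmp7 and Gdf15 highest on average in differentiated cells.

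Of the 4 tested type I receptors 1 fell under dbcAMP, and of the 4 type II receptors 2 fell, where 27.9% of all genes fell. Groups this small do not set the receptors apart from that share. Tgfbr3, the co-receptor betaglycan that presents TGF-beta to its receptors, had 233, 396 and 435 CPM in undifferentiated, 764, 949 and 1072 in differentiated and 759, 831 and 915 in dedifferentiated cells. The undifferentiated libraries were below all others, and the other stages overlapped. Tgfbr3 was 2.52-fold higher under dbcAMP (log2 change 1.33, SE 0.195, edgeR adjusted p = 0.000162) and 2.29-fold higher after withdrawal than before treatment (1.19, SE 0.194, edgeR adjusted p = 0.00106). On withdrawal its log2 change was −0.14 with SE 0.191 (edgeR adjusted p = 0.572). Tgfbr2, the type II receptor of TGF-beta, had 193, 318 and 326 CPM, then 307, 356 and 353, then 379, 417 and 425. It differed between dedifferentiated and undifferentiated cells only (0.50, SE 0.156, edgeR adjusted p = 0.0344), a call lost without any of the dedifferentiated replicates 1, 2 and 3 (adjusted p = 0.053, 0.112 and 0.0939). Without undifferentiated replicate 1 it was 0.31 (edgeR adjusted p = 0.029). The library numbered 1 was the lowest of its stage for Tgfbr2 and Tgfbr3 throughout.

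Tgfbr1, the type I receptor of TGF-beta, had 115, 109 and 114 CPM before treatment, 88.9, 83.5 and 87.2 under dbcAMP and 110.5, 82.5 and 115 after withdrawal. It was 1.36-fold lower under dbcAMP (log2 change −0.44, SE 0.113, edgeR adjusted p = 0.00607). Its withdrawal change of 0.26 did not pass the test (edgeR adjusted p = 0.0835) and became 0.40 (edgeR adjusted p = 0.00487) without dedifferentiated replicate 2, the low library. Bmpr2, the type II receptor of BMPs, had 80.9, 82.1 and 84.8 CPM, then 46.0, 56.9 and 52.4, then 82.8, 64.2 and 70.3. It fell 1.67-fold under dbcAMP (−0.74, SE 0.106, edgeR adjusted p = 0.000146) and rose 1.41-fold on withdrawal (0.50, SE 0.106, edgeR adjusted p = 0.00314). Acvr2a, an activin type II receptor, had a lower level under dbcAMP (−0.29 in log2, edgeR adjusted p = 0.0191), a call lost without undifferentiated replicate 3 or differentiated replicate 1 (adjusted p = 0.0672 and 0.0553). The gene model of Acvr2a overlaps Orc4. Acvr1, a BMP type I receptor, had 12.4, 17.7 and 22.3 CPM under dbcAMP and 9.41, 10.0 and 12.4 after withdrawal, a decrease of 1.62-fold (−0.70 in log2, SE 0.199, edgeR adjusted p = 0.0149). That call was lost without differentiated replicate 3 or dedifferentiated replicate 1 or 2 (adjusted p = 0.0700, 0.0548 and 0.0520). The type I receptors Acvr1b (11.1 to 17.9 CPM) and Bmpr1a (89.3 to 112) and the type II receptor Acvr2b (4.33 to 6.26) were not called in any comparison with all libraries. Acvr1b was higher in dedifferentiated than undifferentiated cells without dedifferentiated replicate 2 (0.49, edgeR adjusted p = 0.0489).

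Of the SMADs, Smad4, the partner shared by both branches, had 322, 326 and 323 CPM in undifferentiated cells, 115, 135 and 130.5 in differentiated and 214, 198 and 216 in dedifferentiated cells. No stages overlapped. Smad4 was 2.67-fold lower under dbcAMP (log2 change −1.42, SE 0.0773, edgeR adjusted p = 1.12e-07), rose 1.67-fold on withdrawal (0.74, SE 0.0765, edgeR adjusted p = 2.87e-05) and stayed 1.60-fold below its first level (−0.68, SE 0.0760, edgeR adjusted p = 8.84e-05). Smad5, of the BMP branch, had 104, 101 and 104 CPM, then 47.5, 49.4 and 53.4, then 70.7, 73.0 and 80.9, again without overlap. It fell 2.15-fold (−1.10, SE 0.0780, edgeR adjusted p = 7.2e-07), rose 1.51-fold (0.59, edgeR adjusted p = 0.000144) and ended 1.43-fold below the undifferentiated level (−0.51, edgeR adjusted p = 0.000637). Smad1, of the same branch, had 133, 73.0 and 78.7 CPM, then 50.5, 44.4 and 45.1, then 80.1, 77.3 and 87.3. Undifferentiated replicate 1 stood above the other libraries, and every differentiated library was below all others. Smad1 fell 2.13-fold (−1.09, SE 0.204, edgeR adjusted p = 0.000906) and rose 1.76-fold on withdrawal (0.82, SE 0.204, edgeR adjusted p = 0.00769). Its difference from the undifferentiated level after withdrawal was −0.27 (SE 0.201, edgeR adjusted p = 0.345).

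In the TGF-beta branch, Smad3 had 145, 183 and 200.3 CPM before treatment, 95.9, 131 and 127 under dbcAMP and 150.4, 148 and 168 after withdrawal. It fell 1.55-fold (log2 change −0.64, SE 0.127, edgeR adjusted p = 0.00137) and rose 1.33-fold (0.41, SE 0.127, edgeR adjusted p = 0.0222). The rise was lost without differentiated replicate 1 or dedifferentiated replicate 3 (adjusted p = 0.0716 and 0.0786). Smad2 ranged from 65.3 to 90.7 CPM, with all 3 stages overlapping, and passed no test. The inhibitory Smad7 had 14.3, 13.0 and 14.7 CPM, then 13.7, 8.33 and 10.4, then 13.7, 16.9 and 16.5. Its rise on withdrawal (0.55, SE 0.184, edgeR adjusted p = 0.0326) was lost in 4 of 6 fits without 1 library, with adjusted p up to 0.108. Smad6, the inhibitor of the BMP branch, had 15.6, 10.3 and 6.28 CPM, then 13.1, 3.24 and 3.89, then 13.6, 14.1 and 18.3. Differentiated replicate 1 stood far above replicates 2 and 3. Smad6 was not called in any comparison by the edgeR fit of stage alone (withdrawal change 1.20, SE 0.491, edgeR adjusted p = 0.0680). With no filter on low counts its withdrawal change was called (1.20, edgeR adjusted p = 0.0460). Without differentiated replicate 1 it was lower under dbcAMP (−1.66, edgeR adjusted p = 0.00403) and higher on withdrawal (2.12, edgeR adjusted p = 0.0016), and Smad7 was lower under dbcAMP (−0.64, edgeR adjusted p = 0.00865).

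**Figure D4:**
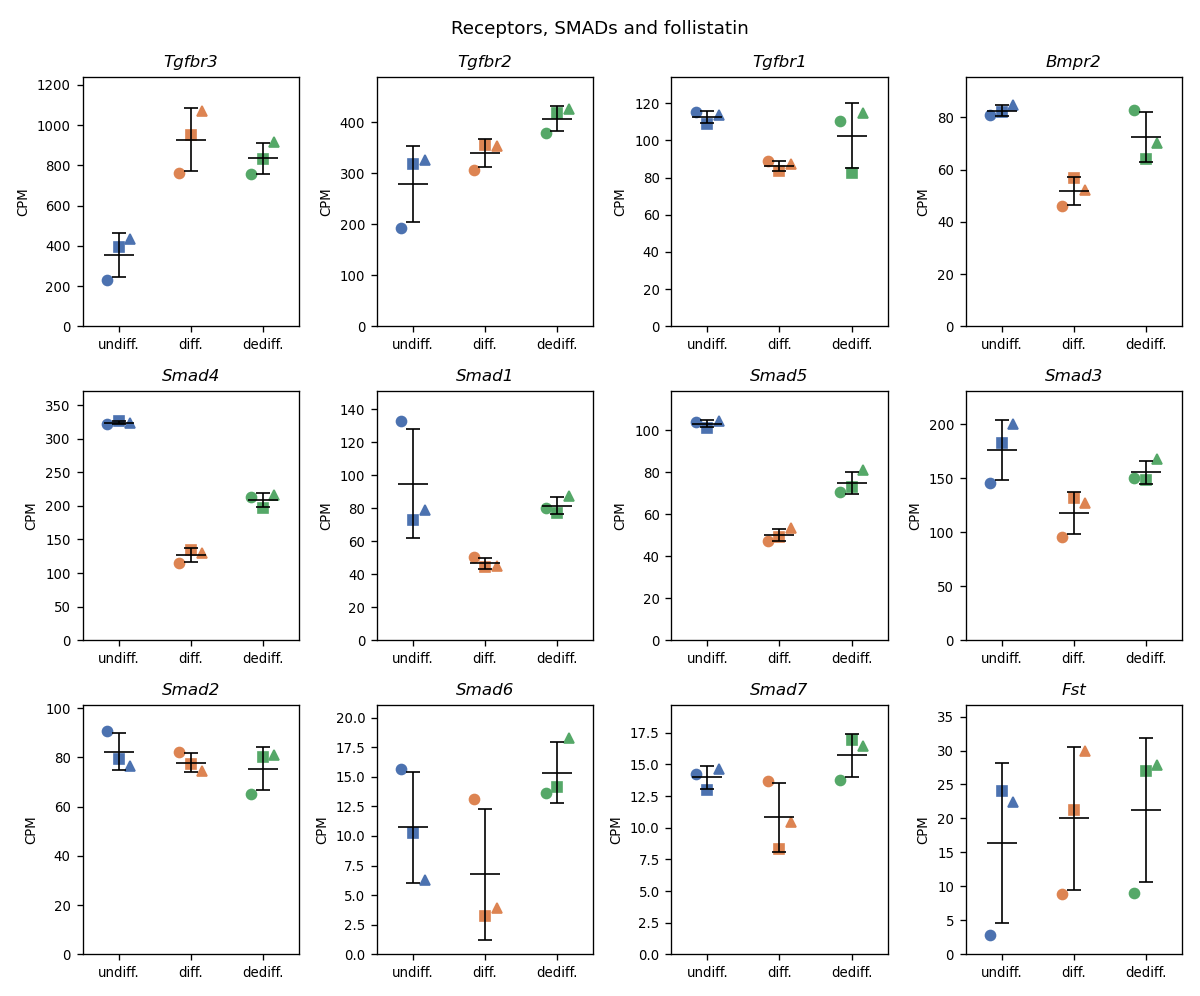
CPM of receptor genes, SMAD genes and Fst in each library, by stage. Circle, square and triangle are replicates 1, 2 and 3, and dash and bars are the mean ± SD (n = 3), cut at 0; Smad4 and Smad5 fell under dbcAMP and rose on withdrawal, Tgfbr3 stayed high, and Fst was low in replicate 1 of each stage.

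Neither tested antagonist was called in any comparison by the edgeR fit of stage alone. Fst, follistatin, which binds activins, had 2.82, 24.0 and 22.4 CPM in undifferentiated cells, 8.91, 21.2 and 29.9 in differentiated and 8.99, 26.9 and 27.8 in dedifferentiated cells. The library numbered 1 was the lowest of each stage, and the stages overlapped. Fst passed no test, with log2 changes of 0.24 (SE 0.642), 0.10 (SE 0.636) and 0.33 (SE 0.646). Grem1, gremlin, a BMP antagonist, had 2.50, 0.288 and 0.916 CPM, then 7.59, 1.31 and 1.60, then 3.48, 0.994 and 1.43, and here the library numbered 1 was the highest. Its log2 change under dbcAMP was 1.42 (SE 0.823, edgeR adjusted p = 0.161). With the replicate number as a block it was 1.35 (edgeR adjusted p = 0.00876), and without undifferentiated replicate 1 it was 2.40 (edgeR adjusted p = 0.0490). That was the only call in the 6 fits without 1 library. Across those fits the change went down to 0.15, with edgeR adjusted p up to 0.882.

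The other 21 members were not tested. Bmp8a, Bmp10, Bmp15, Gdf3, Gdf6, Gdf7 and Acvr1c had no count in any library. The remaining 14 had at most 11 counts in a library: Bmp2, Bmp4, Bmp5, Gdf2, Gdf9, Gdf10, Inhbb, Inhbc, Inhbe, Acvrl1, Bmpr1b, Smad9, Nog and Chrd. Chrd, chordin, which binds BMPs, reached the highest total, 50 counts over the 9 libraries. Smad9 had 1 count in undifferentiated, 14 in differentiated and 10 in dedifferentiated libraries. The ratio of differentiated to undifferentiated Smad9 counts per total was 12.5, with a 95% counting interval of 1.90 to 528. Their low counts left these genes without a test, and no statement on the other changes is made. Nog and Bmp4, an antagonist and a ligand often studied together, had 10 and 4 counts in all.

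The changes in the 3 comparisons are drawn side by side for the 33 tested members. The widest standard errors belong to genes with few counts, such as Bmp6, or with a replicate that stood apart, such as Grem1.

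**Figure D5:**
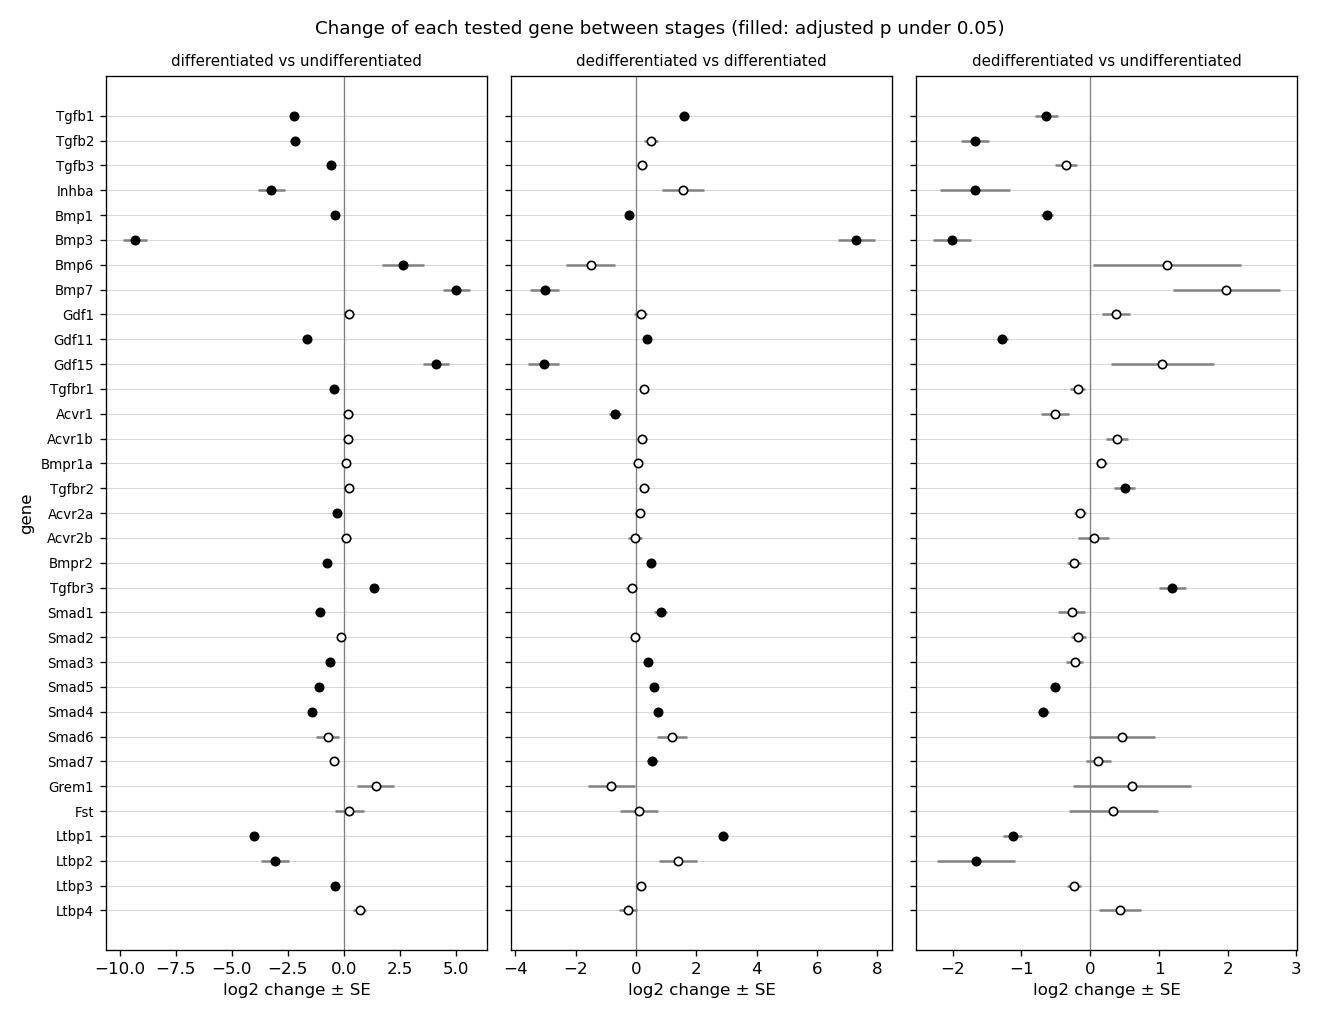
Log2 change ± SE of the 33 tested members in the 3 comparisons, from the edgeR fit. Filled points have an adjusted p under 0.05 (21, 14 and 12 members); Bmp3 and Ltbp1 lie far left in the first panel and far right in the second, and Bmp7 and Gdf15 lie the other way.

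Other genes of the pathway came from a separate list of extracellular regulators, co-receptors, intracellular regulators and genes commonly induced by it. Of 64 in the table, 48 were tested. Under dbcAMP 13 rose and 21 fell, on withdrawal 15 rose and 10 fell, and 8 were higher and 13 lower in dedifferentiated than undifferentiated cells. These were 70.8%, 52.1% and 43.8% of the 48 tested, beside 59.6%, 46.4% and 29.4% of all tested genes. In the last comparison 5 were higher without undifferentiated replicate 2, dedifferentiated replicate 2 or dedifferentiated replicate 3, and 13 without all 3 libraries numbered 1. Their median log2 changes were −0.38, 0.15 and −0.16. Of the 13 tested genes commonly induced by the pathway, 2 rose and 6 fell under dbcAMP, 5 rose and 2 fell on withdrawal, and 3 were higher and 3 lower in the last comparison. The called shares of 61.5%, 53.8% and 46.2% are read beside the same all-gene shares. A group of 13 genes does not set them apart from those shares. By direction, 31.7%, 23.2% and 16.1% of all genes were higher and 27.9%, 23.2% and 13.3% lower in the 3 comparisons.

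Tgfbi, a matrix protein named for its induction by TGF-beta, had 1172, 1153 and 1116 CPM in undifferentiated cells, 107, 178 and 229 in differentiated and 346, 366 and 369 in dedifferentiated cells. No stages overlapped. It fell 7.00-fold (−2.81, SE 0.212, edgeR adjusted p = 1.19e-06) and rose 2.13-fold (1.09, SE 0.201, edgeR adjusted p = 0.00137). Pmepa1 and Bambi, feedback inhibitors of the pathway, fell under dbcAMP, with log2 changes of −0.79 and −0.70 and edgeR adjusted p = 9.83e-05 and 0.0111. Ctgf, a usual TGF-beta target, was not called in any comparison by the same fit (331, 1371 and 986 CPM in undifferentiated and 479, 721 and 957 in differentiated cells). Undifferentiated replicate 1 was the lowest Ctgf library of its stage. With no filter on low counts, Ctgf was lower in dedifferentiated than undifferentiated cells (−1.07, edgeR adjusted p = 0.0386). Without undifferentiated replicate 1 the log2 change was −0.76 under dbcAMP (edgeR adjusted p = 0.0157) and −1.44 between dedifferentiated and undifferentiated cells (edgeR adjusted p = 0.00111).

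The Id genes, usual targets of the BMP branch that encode inhibitors of basic helix-loop-helix factors, did not move together. Id2 had 14.4, 4.90 and 4.38 CPM, then 298, 324 and 253, then 53.2, 40.4 and 39.3, a 35.2-fold rise under dbcAMP (log2 change 5.14, SE 0.381, edgeR adjusted p = 1.01e-06). Without undifferentiated replicate 1, the highest of its stage, the log2 change was 5.94. Id4 rose 5.26-fold (2.40, SE 0.165, edgeR adjusted p = 5.96e-07). Id3 fell 2.03-fold (−1.02, SE 0.233, edgeR adjusted p = 0.00313) and rose 2.29-fold on withdrawal (1.19, edgeR adjusted p = 0.00191). Id1, with 6.91 to 18.1 CPM, was not called in any comparison by the edgeR fit of stage alone. It was lower under dbcAMP with no filter on low counts (−0.67, edgeR adjusted p = 0.0450), by DESeq2's Wald test (−0.67, DESeq2 adjusted p = 0.0352) and without undifferentiated replicate 3 (−0.86, edgeR adjusted p = 0.0207).

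Extracellular regulators held some of the widest differences. Sostdc1, an antagonist of BMPs and Wnts, had 4.03, 33.9 and 35.4 CPM, then 795, 1442 and 1244, then 101, 159 and 168. It was 45.8-fold higher under dbcAMP (log2 change 5.52, SE 0.603, edgeR adjusted p = 1.9e-05), fell 8.06-fold on withdrawal and remained 5.67-fold above the undifferentiated level (2.50, SE 0.540, edgeR adjusted p = 0.00568). Chrdl2, a chordin-like BMP binder, had 13.4, 20.5 and 15.8 CPM in undifferentiated cells, 0 in every differentiated library and 1.44, 1.99 and 3.54 in dedifferentiated cells. Against a floor of 3 counts over the group, Chrdl2 was 232-fold lower under dbcAMP, with a counting interval from 188 upward. It was 34.1-fold higher after withdrawal, with an interval from 27.1 upward. Both intervals cover counting error only. Tll1, a protease related to Bmp1 that cleaves chordin, had 1.45, 1.35 and 1.05 CPM, then 68.4, 41.9 and 48.5, then 9.75, 5.96 and 5.49. It rose 39.9-fold (5.32, SE 0.311, edgeR adjusted p = 1.86e-07), while Bmp1 fell. Pcsk6, a proprotein convertase that can process ligands of the family, had 13.5, 28.8 and 30.6 CPM, then 1.99, 1.23 and 2.96, then 24.2, 29.7 and 28.8. It fell 12.0-fold (−3.58, edgeR adjusted p = 6.7e-06) and rose 13.2-fold (3.72, edgeR adjusted p = 1.16e-05). Emilin1, a matrix protein that restrains processing of the TGF-beta precursor, fell 4.28-fold under dbcAMP (−2.10, edgeR adjusted p = 4.73e-07) and was 3.81-fold below its first level after withdrawal (−1.93, edgeR adjusted p = 5.19e-06). Nedd4l, a ubiquitin ligase that targets activated Smad2 and Smad3, had 123, 150.4 and 158 CPM, then 25.3, 25.5 and 26.3, then 83.5, 109.6 and 107. It fell 5.83-fold (−2.54, SE 0.118, edgeR adjusted p = 3.92e-08) and rose 3.92-fold (1.97, SE 0.117, edgeR adjusted p = 5.96e-07).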

How the data were processed

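Cell mRNA was sequenced from 9 libraries of cultured rat Schwann cells, made with a directional kit per the labels. The authors deposited 1 table of estimated counts per gene. The submitters' processing notes list Salmon, STAR, HISAT2, Trim Galore and DESeq2 1.26.0 with no roles. The genome build and annotation are not given in the sources used here, and whether counting used strand is not stated. Members whose gene models overlap other genes are therefore uncertain. Where replicate suffixes of columns disagreed with sample titles, the titles were followed. The 1.15% of values that were fractional were rounded.

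Genes were filtered with filterByExpr (minimum count 10), scaled by TMM and tested with edgeR 4.0.16 in R 4.3.3, by a quasi-likelihood fit over all 9 libraries without covariates. Calls needed an adjusted p (Benjamini-Hochberg, over 10372 genes) under 0.05. CPM are rounded counts over the library total. P-values measure the spread between these libraries. The fit was tried on simulated counts in which 200 of 10372 genes changed and libraries were independent. In the data 59.6% of genes were called in the first comparison, and libraries correlated by replicate number. The simulation does not test the fit under those conditions.

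Between undifferentiated and differentiated libraries, deviations from stage means correlated by 0.234 to 0.305 within each replicate number, so that comparison is paired by number, a pairing taken from the data and the sample titles. Replicates 1 and 2 belong to sequencing project 9987 and replicate 3 to 11026. The members and lists were chosen with earlier results of these data known. Any member could be named. Members called with a log2 change over 1 are given in every library. Other pathway genes past 2 (up to 6 per comparison) and a fixed set of targets could be named, some by their changes alone. Alternatives were the replicate block, sequencing project as a covariate, other scalings, no filter, DESeq2 1.42.0 and leaving out each library. The miRNA and lncRNA tables were not used here. Some pathway genes are not reported here.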

Additional observations from a re-analysis of the deposited data

How the results depend on the processing

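No count of called genes over both directions moved by more than 1.5 times under any alternative, while small counts in 1 direction did, as given beside them. Leaving out 1 library at a time gave 20 to 22, 11 to 15 and 9 to 13 called members in the 3 comparisons in order, 5558 to 6049, 3916 to 4513 and 2246 to 2876 called genes, and 30 to 35, 25 to 27 and 15 to 21 other pathway genes. With the replicate number as a block, 23, 17 and 13 members were called. For the comparison of differentiated with undifferentiated cells the block added Grem1 and Ltbp4 and changed no other member's call. The other comparisons share only a number (correlations of 0.083 to 0.212 and 0.028 to 0.150), with 5 and 4 of 6 libraries correlating best with their own number. There the block added Bmp6, Ltbp2 and Smad6 on withdrawal (log2 change −1.67, 1.54 and 1.42, edgeR adjusted p = 0.0419, 0.0106 and 0.0165) and Acvr1 in the last comparison (−0.52, edgeR adjusted p = 0.0332). Library size alone gave 20, 14 and 11 members, no filter 21, 14 and 11, and DESeq2's Wald test 22, 14 and 12. Over the 67 member changes that were called, exceeded 1 on the log2 scale or gained a call in any setting, 865 of 938 alternative values kept direction and side of the threshold, 39 lost and 33 gained a call, and 1 reversed: Bmp6 between dedifferentiated and undifferentiated cells, −0.016 without dedifferentiated replicate 3, in a range of up to 2.39 over its 6 fits without 1 library. For 40 changes of other named pathway genes, run after seeing the data, 541 of 560 values kept direction and side. Ctgf reversed under dbcAMP without undifferentiated replicate 2 (0.046, in a range from −0.76). Id3 reversed between dedifferentiated and undifferentiated cells without undifferentiated replicate 2 (−0.035, in a range up to 0.49). The causes were not tested. No called member changed sign under any alternative. Without all 3 libraries numbered 1, an alternative chosen after seeing the data, 23, 18 and 18 members were called, and Tgfb3 under dbcAMP was lost (−0.43, edgeR adjusted p = 0.0583). Genes under about 10 counts per library are limited by depth.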

Other observations

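The library numbered 1 was the lowest of its stage in all 3 stages for 10 of the 33 tested members (30.3%): Acvr1, Bmp1, Bmp6, Bmp7, Fst, Ltbp4, Tgfb1, Tgfb2, Tgfbr2 and Tgfbr3. The same held for 11.8% of all tested genes. It was the highest in all 3 stages for 3 members (Bmp3, Grem1 and Ltbp2) and for 5.24% of genes. Without these 3 libraries, 6 members not called with all libraries by the edgeR fit of stage alone differed between dedifferentiated and undifferentiated cells: Acvr1, Bmpr2, Ltbp3, Ltbp4, Smad3 and Smad6. Replicates 1 and 2 share a sequencing project, and the labels give no other property that sets replicate 1 apart.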
